A study of Homo sapiens with 24 samples.

Results

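The 10 keratin genes described here, KRT7, KRT8, KRT10, KRT15, KRT17, KRT18, KRT19, KRT80, KRT81 and KRT86, were taken by their gene symbols from 60675 genes counted by RNA-seq in 24 libraries of ACHN and HK2 cells. The rule names them by symbol and uses no measured value, but the list was chosen with earlier results of these data known. The tables hold 44 further keratin genes with a symbol. ACHN is a cell line from a metastatic renal carcinoma, labelled ccRCC (clear cell renal cell carcinoma) by the submitters, and HK2 (HK-2) is an immortalised line from the proximal tubule of a normal adult kidney. In each line 4 groups of 3 libraries were sequenced: a control hairpin (shCtrl, labelled shNC), a hairpin against KDM5C (shKDM5C), a hairpin against YY1 (shYY1), and both (double, labelled Dsh). All 8 groups carried a lentiviral short hairpin and had been selected with puromycin. The double lines were YY1-depleted cells infected a further time with a KDM5C hairpin that also encoded green fluorescent protein. They were therefore infected and selected more often than the other groups, which cannot be told apart from the double depletion. All cells grew in DMEM with 10% fetal bovine serum. The study made several hairpins per gene, and which one was sequenced is not given in the sources used here. Nor is it stated that the 3 libraries of a group came from separate cultures, so the p-values measure the spread between these libraries, which may be technical. KDM5C is a demethylase that removes methyl groups from lysine 4 of histone H3, and YY1 is a zinc finger transcription factor that can activate or repress its targets. The design asks how genes respond to loss of either, of both, and in a tumour line against a non-tumour line.

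Keratins are the intermediate filament proteins of epithelial cells. Their filaments are built from obligate pairs of an acidic type I and a basic type II chain, and a chain without a partner is degraded. Simple epithelia such as the kidney tubule make mainly the pair of KRT8 (type II) and KRT18 (type I), together with KRT19 (type I) and KRT7 (type II), and renal tumours are typed in part by which of these they hold. Among the other members, KRT10 is the type I keratin of differentiating epidermis and KRT15 a type I keratin of basal cells and hair follicle stem cells. KRT17 is a type I keratin induced in wounded and proliferating epithelium. KRT80 is a widely expressed type II keratin, and KRT81 and KRT86 are type II keratins of hair.

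The 24 libraries held between 15926561 and 24272298 counts assigned to genes, and levels are given below as CPM, the counts of a gene scaled to a common library size. HK2 shKDM5C replicate 1 stood apart: its median absolute log2 difference from its 2 partners, over all expressed genes, was 0.492, against 0.0526 to 0.0960 for libraries of the other 7 groups, and values that use it are followed by the same values without it. The depleted genes followed the labels: KDM5C fell from 70.8 ± 0.560 CPM (SD, n = 3) in ACHN shCtrl to 43.1 ± 1.36 in shKDM5C and 40.6 ± 0.644 in double, and in HK2 from 191 ± 3.16 to 56.2 ± 19.2 (67.3 without replicate 1) and 68.2 ± 2.92. YY1 fell from 139 ± 3.90 CPM in ACHN shCtrl to 76.8 ± 3.57 in shYY1 and 97.0 ± 7.07 in double, and in HK2 from 208 ± 6.38 to 63.9 ± 2.81 and 74.2 ± 1.78. The fall of KDM5C under its own hairpin was -0.73 ± 0.047 (adjusted p = 1.12e-12) in ACHN and -1.74 ± 0.23 (adjusted p = 0.0184) in HK2, or -1.51 ± 0.051 (adjusted p = 1.26e-16) without that library. That of YY1 was -0.88 ± 0.039 (adjusted p = 1.65e-19) and -1.70 ± 0.056 (adjusted p = 2.21e-15) (log2 fold change ± SE). The falls were smaller in ACHN, for KDM5C by 1.02 ± 0.25 (adjusted p = 0.0203), or 0.79 ± 0.065 (adjusted p = 4.31e-11) without that library, and for YY1 by 0.84 ± 0.066 (adjusted p = 3.52e-11). KDM5C was higher than shCtrl in the shYY1 libraries of both lines (log2 fold change 0.34 ± 0.040 in ACHN and 0.35 ± 0.051 in HK2).

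Both lines held the kidney lineage factor PAX8, at 544 CPM in ACHN and 253 CPM in HK2 shCtrl libraries. The proximal tubule transporters SLC22A6, SLC22A8 and the receptor LRP2 were at or near 0 in every group (at most 0.0197 CPM as a group mean). CUBN, SLC34A1, AQP1 and ANPEP were also below 1 CPM in every group. Of the 10 proximal tubule markers, 3 reached a mean of 1 CPM in each shCtrl group. These were GGT1 at 70.7 CPM in ACHN and 200 CPM in HK2 shCtrl, MME at 1.18 and 17.2 CPM, and SLC5A2 at 1.83 and 2.33 CPM. GGT1 made up most of the summed level of the proximal tubule list given below. CA9, a defining gene of clear cell carcinoma, was near 0 in both, at 0.125 CPM in ACHN shCtrl and 0.769 CPM in HK2 shCtrl. The 5 clear cell markers summed to 126 to 128 CPM in ACHN shCtrl and 86.5 to 99.8 in HK2 shCtrl, with 4 and 3 of them at 1 CPM or more. Of other epithelia that could carry these keratins, the stratified markers KRT5, KRT14, KRT6A and TP63 were at most 0.0779 CPM in any group. The summed level of that 6-gene list (1.34 to 29.4 CPM over ACHN libraries and 10.6 to 53.4 over HK2) came almost wholly from SFN. The 5 urothelial markers summed to 0.277 to 0.812 CPM in ACHN and 0 to 0.729 in HK2. Kidney epithelial markers (8 genes) summed to 610.0 to 916 CPM in ACHN and 1013 to 1638 in HK2, proximal tubule markers (10 genes) to 73.8 to 135 and 176 to 355, and clear cell carcinoma markers (5 genes) to 85.7 to 355 and 48.6 to 257. Fibroblast markers (7 genes) summed to 75.0 to 637 and 28.2 to 103 CPM, leukocyte markers (5 genes) to 0.122 to 0.980 and 2.95 to 7.60, and endothelial markers (4 genes) to 0.0554 to 1.78 and 0.177 to 1.70. In ACHN the fibroblast sum came almost wholly from COL1A1 and PDGFRB, at 584 and 31.8 CPM in shCtrl. COL1A2, COL3A1, DCN and LUM were at most 0.0898 CPM in any ACHN group. In HK2 the fibroblast sum came mostly from COL1A1 and LUM. The clear cell sum came mostly from VEGFA, except in ACHN double, where ANGPTL4 was 270 CPM and VEGFA 77.5. In these bulk samples, fewer cells of a type and less RNA per cell cannot be told apart.

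On the GRCh38 assembly used by the tables, the genes lie in the keratin clusters of chromosomes 12 and 17. The type II genes and KRT18 are on chromosome 12, with KRT80 at chr12:52168996-52192000 (-), KRT7 at chr12:52232520-52252186 (+), KRT86 at chr12:52249300-52309163 (+), KRT81 at chr12:52285913-52291534 (-), KRT8 at chr12:52897187-52949954 (-) and KRT18 at chr12:52948871-52952901 (+). The other type I genes are on chromosome 17, with KRT10 at chr17:40818117-40822595 (-), KRT15 at chr17:41513743-41522529 (-), KRT19 at chr17:41523617-41528308 (-) and KRT17 at chr17:41619437-41624842 (-). KRT8 and KRT18 lie on opposite strands and share 525 exon bases, which is 7.63% of the exon length of KRT8 and 16.3% of that of KRT18. KRT7 shares 282 exon bases with its antisense gene KRT7-AS and KRT10 shares 56 with KRT10-AS1. The counting used no strand, so reads in these bases cannot be assigned to one gene or the other, and KRT81 and KRT86, close paralogs, may exchange reads.

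Of the 10 genes, only KRT8 and KRT10 had an entry in the RefSeq promoter table (GRCh38.p14), and the 250 bases before their listed starts are printed for that reason. Both genes fell in the ACHN double libraries. In shYY1, KRT8 rose in ACHN and fell in HK2, and KRT10 did the reverse. The core motif of YY1 was searched because YY1 was depleted, and whether YY1 acts at these stretches was not tested. Capitals mark matches to the YY1 core CCATNTT or to the TATA box TATAAA, searched on both strands together with GGGCGG (SP1) and TGANTCA (AP-1). The stretch of KRT8 is chr12:52926470-52926719, minus strand, next to a start that lies inside the gene span of the tables and is 1 of several. That of KRT10 is chr17:40822615-40822864, minus strand, 19 bases from the end of the first exon in the tables. The counts are per gene, so whether the transcripts of these cells begin at the listed starts was not tested.
KRT8: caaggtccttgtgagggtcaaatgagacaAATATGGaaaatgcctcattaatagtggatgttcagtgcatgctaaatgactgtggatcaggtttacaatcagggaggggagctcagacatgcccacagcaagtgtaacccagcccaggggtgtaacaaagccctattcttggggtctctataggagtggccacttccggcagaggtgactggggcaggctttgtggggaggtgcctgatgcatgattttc
KRT10: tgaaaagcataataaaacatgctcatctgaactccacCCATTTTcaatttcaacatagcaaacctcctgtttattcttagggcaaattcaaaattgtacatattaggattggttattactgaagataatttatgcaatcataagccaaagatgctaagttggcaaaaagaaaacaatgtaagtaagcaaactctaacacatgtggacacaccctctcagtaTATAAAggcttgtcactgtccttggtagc
The YY1 core was matched once in each, as AATATGG on the opposite strand 221 to 215 bases before the start of KRT8, and as CCATTTT on the given strand 213 to 207 bases before that of KRT10. KRT10 also held a TATA box 29 to 24 bases before the start, and neither stretch held the GGGCGG or the TGANTCA letters. Among 34943 promoters of the same length in the table, 11.6% held the YY1 core, 10.8% the TATA box, 42.5% GGGCGG and 6.59% TGANTCA. KRT7, KRT15, KRT17, KRT18, KRT19, KRT80, KRT81 and KRT86 had no entry.

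The 2 lines used different simple-epithelial keratins beside KRT8. Levels per kilobase use the merged exon length of all annotated transcripts, 6.881 kb for KRT8 and 2.336 kb for KRT19, not that of the transcripts expressed. The order of genes depends on these lengths: in CPM, KRT8 stood above KRT19 in ACHN shCtrl, at 1413 against 707. Per kilobase of exon, KRT19 stood first in ACHN shCtrl at 302 ± 6.96 CPM per kb (SD, n = 3), followed by KRT8 at 205 ± 3.07, and KRT80 at 96.9 ± 0.479. Next came KRT18 at 60.9 ± 1.80, KRT10 at 11.3 ± 1.02 and KRT7 at 1.69 ± 0.137. In HK2 shCtrl the order was KRT8 at 264 ± 7.95 CPM per kb, KRT18 at 186 ± 4.59 and KRT80 at 49.4 ± 0.677, followed by KRT7 at 28.8 ± 0.822, KRT19 at 18.6 ± 0.621 and KRT10 at 11.1 ± 2.00. Neighbours among these 6 were farther apart than their spread, while KRT86, KRT81 and KRT15 were below 1 CPM per kb in every group but ACHN shYY1, where KRT86 reached 1.18, and KRT86 and KRT81 overlapped in both shCtrl groups. KRT17 was close to silent. Its counts per library were 0, 1 and 1 in ACHN shCtrl, 0, 2 and 2 in shKDM5C, 0, 1 and 2 with the YY1 hairpin and 0, 0 and 3 with both. In HK2 it had 4 counts in shYY1 replicate 2, 2 in double replicate 2 and 0 in the other 10 libraries, and it did not enter any test.

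Set against each other, the shCtrl libraries of ACHN held more KRT19 (4.01 ± 0.040, adjusted p = 1.62e-32, log2 fold change ± SE), KRT80 (0.96 ± 0.033, adjusted p = 2.81e-20) and KRT15 (0.75 ± 0.32, adjusted p = 0.0352) than those of HK2. They held less KRT7 (-4.10 ± 0.069, adjusted p = 2.73e-27), KRT18 (-1.62 ± 0.034, adjusted p = 6.14e-25) and KRT8 (-0.37 ± 0.028, adjusted p = 2.09e-12). These were 3 higher and 3 lower of 9 genes tested, where 38.6% of all genes tested were higher in ACHN and 38% lower, so a difference between the lines was the rule for expressed genes. KRT19 and KRT7 differed most and in opposite directions: KRT19 was 707 CPM in ACHN and 43.5 in HK2, and KRT7 was 6.93 and 118. The call for KRT15, at about 1 to 2 CPM, was lost without any one of ACHN shCtrl replicates 1 and 2 and HK2 shCtrl replicates 1 and 3 (adjusted p 0.0666 to 0.155). It was also lost with DESeq2 (adjusted p = 0.0707) and with total counts in place of TMM (adjusted p = 0.0512). KRT10, KRT81 and KRT86 did not pass.

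**Figure D1:**
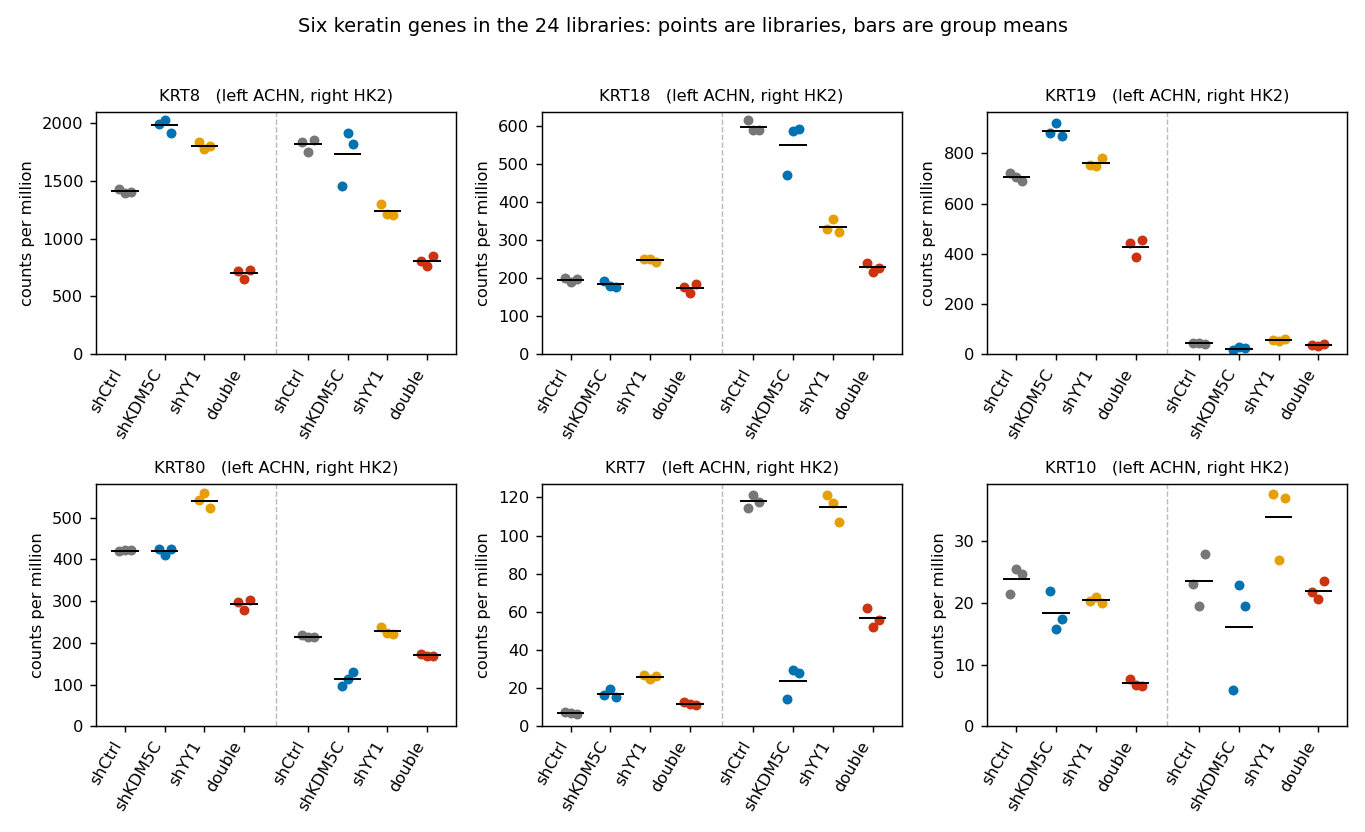
Levels of KRT8, KRT18, KRT19, KRT80, KRT7 and KRT10 in CPM (y axis, from 0) in each of the 24 libraries (points) by group (x axis, ACHN left and HK2 right of the dashed line), with bars at the group means (n = 3). KRT8 was lowest in the double libraries of both lines, KRT18 was lower in HK2 shYY1 and double than in HK2 shCtrl, and KRT7 was 107 to 121 CPM in HK2 shCtrl and shYY1 but 14.5 to 29.5 CPM in HK2 shKDM5C.

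KRT8, the main type II chain, fell in the double knockdown of both lines and rose in each single knockdown of ACHN. In ACHN the shCtrl libraries held 1436, 1394 and 1409 CPM of KRT8 and the shKDM5C libraries 1994, 2033 and 1921. The shYY1 libraries held 1840.3, 1774 and 1808 CPM and the double libraries 721, 651 and 729.6. The 4 groups did not overlap, and the double libraries were lowest. KRT8 rose in ACHN shKDM5C (log2 fold change 0.47 ± 0.026 SE, adjusted p = 3.39e-14) and in shYY1 (0.33 ± 0.023, adjusted p = 3.48e-14), and fell in double (-1.005 ± 0.045, adjusted p = 9.08e-13). In HK2 it stood at 1843, 1756 and 1856 CPM in shCtrl and 1454, 1918 and 1822 in shKDM5C. Levels in the shYY1 libraries were 1299, 1217 and 1205 CPM, and in the double libraries 808, 764 and 850.1. The shKDM5C libraries spanned the shCtrl range, with replicate 1 below and replicate 2 above it, and the shYY1 and double groups were each below shCtrl without overlap. KRT8 fell in HK2 shYY1 (-0.56 ± 0.041, adjusted p = 8.14e-10) and double (-1.17 ± 0.039, adjusted p = 3.83e-21). The value in HK2 shKDM5C was -0.043 ± 0.11 (adjusted p = 0.847), or 0.030 ± 0.032 (adjusted p = 0.566) without replicate 1. Against the single knockdowns, the double libraries held less KRT8 than shKDM5C and shYY1 in ACHN (-1.48 ± 0.046, adjusted p = 5.4e-14, and -1.36 ± 0.045, adjusted p = 1.38e-13). The same held in HK2 (-1.13 ± 0.12, adjusted p = 0.0025, and -0.62 ± 0.049, adjusted p = 2.65e-10). Without replicate 1 the first of these was -1.21 ± 0.044 (adjusted p = 3.95e-16).

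KRT18, the type I partner of KRT8, changed by at most 0.32 on the log2 scale against shCtrl in ACHN and fell in HK2 shYY1 and double. The ACHN libraries held 200.4, 189 and 198 CPM of KRT18 in shCtrl and 192, 180.0 and 178 in shKDM5C. With the YY1 hairpin the values were 251, 250.4 and 242 CPM, and with both hairpins 177, 161 and 183. The shYY1 libraries were above all others, whereas the shKDM5C range overlapped those of shCtrl and double. KRT18 rose in ACHN shYY1 (0.32 ± 0.031, adjusted p = 2.02e-10) and fell in double (-0.16 ± 0.050, adjusted p = 0.00822) and shKDM5C (-0.11 ± 0.036, adjusted p = 0.0112). The last call was lost without shCtrl replicate 1 (adjusted p = 0.0715), without shKDM5C replicate 3 (adjusted p = 0.0633) and in a fit of all 4 ACHN groups (adjusted p = 0.0617). In HK2, KRT18 stood at 614, 589 and 588 CPM in shCtrl and 469.8, 587 and 591 in shKDM5C. It was 329, 356 and 321 CPM in the shYY1 libraries and 239.9, 216 and 227 in the double libraries. It fell in HK2 shYY1 (-0.84 ± 0.049, adjusted p = 1.96e-11) and further in double (-1.39 ± 0.044, adjusted p = 9.85e-22, against shCtrl and -0.56 ± 0.056, adjusted p = 1.72e-08, against shYY1). The groups below shCtrl did not overlap it or each other. In HK2 shKDM5C the value was -0.092 ± 0.10 (adjusted p = 0.657), and -0.031 ± 0.036 (adjusted p = 0.606) without replicate 1. Double against shKDM5C gave -0.052 ± 0.053 (adjusted p = 0.405) in ACHN and -1.30 ± 0.12 (adjusted p = 0.00158) in HK2, or -1.37 ± 0.047 (adjusted p = 1.37e-16) without shKDM5C replicate 1. Double against shYY1 gave -0.50 ± 0.050 (adjusted p = 1.4e-07) in ACHN.

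KRT8 was highest relative to KRT18 in ACHN shKDM5C, and within ACHN lowest in double. The ratio of KRT8 to KRT18 in CPM per kb was 3.38 ± 0.0596 (SD, n = 3) in ACHN shCtrl and 5.06 ± 0.217 in shKDM5C. It was 3.41 ± 0.0907 with the YY1 hairpin and 1.89 ± 0.0219 with both. The shKDM5C libraries (4.85 to 5.28) lay above and the double libraries (1.86 to 1.91) below the shCtrl libraries (3.33 to 3.44). HK2 libraries had lower ratios, with 1.42 ± 0.0453 in shCtrl, 1.47 ± 0.0485 in shKDM5C (1.48 without replicate 1), 1.73 ± 0.125 with the YY1 hairpin and 1.66 ± 0.0889 with both. The size of the ratio depends on the merged exon lengths of the 2 genes, so it does not give the ratio of their transcripts. The double libraries of the 2 lines had ratios of 1.86 to 1.91 and 1.57 to 1.75. The exact permutation test of 3 against 3 libraries cannot go below p = 0.1, so these ratios are given without a test. Adding the counts of annotated pseudogenes to KRT8 and KRT18 changed no call for either gene.

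KRT19, a type I keratin that has no tail domain and pairs with KRT8 or KRT7, fell in the double knockdown of both lines, most in ACHN where it was abundant. ACHN shCtrl libraries held 723, 706 and 691 CPM and the shKDM5C libraries 881, 921 and 867. The shYY1 libraries held 753, 751 and 782 CPM and the double libraries 441, 389 and 456. The groups did not overlap: shKDM5C was highest, and double was lowest. KRT19 rose in ACHN shKDM5C (0.32 ± 0.028, adjusted p = 5.7e-10) and slightly in shYY1 (0.087 ± 0.026, adjusted p = 0.00547, with adjusted p = 0.0525 in a fit of all 4 groups). It fell in double (log2 fold change -0.71 ± 0.052 SE, adjusted p = 8.19e-10). In HK2 the values were 43.8, 44.7 and 41.9 CPM in shCtrl and 14.9, 26.9 and 24.7 in shKDM5C. Levels in the shYY1 libraries were 57.9, 53.6 and 60.2 CPM, and in the double libraries 36.0, 34.0 and 40.3. Here shYY1 was above and shKDM5C and double below shCtrl, again without overlap. KRT19 rose in HK2 shYY1 (0.39 ± 0.068, adjusted p = 0.000128) and fell in double (-0.24 ± 0.076, adjusted p = 0.00812). The fall was lost without double replicate 2 (-0.19, adjusted p = 0.0655). In a fit of all 4 HK2 groups, which takes in the library that stood apart, the rise had adjusted p = 0.187 and the fall adjusted p = 0.281. The value in HK2 shKDM5C was -0.95 ± 0.20 (adjusted p = 0.0814), and without replicate 1 it passed at -0.76 ± 0.083 (adjusted p = 1.78e-07). Double against shKDM5C gave -1.03 ± 0.053 (adjusted p = 3.2e-11) in ACHN and 0.70 ± 0.21 (adjusted p = 0.068) in HK2 (0.51 ± 0.095, adjusted p = 0.000104, without replicate 1). Double against shYY1 gave -0.82 ± 0.052 (adjusted p = 5.4e-10) and -0.63 ± 0.077 (adjusted p = 2.97e-07).

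KRT7, a type II keratin of ducts and of several tumours, moved in opposite directions in the 2 lines in shKDM5C and double. In shYY1 it rose in ACHN and was not called in HK2. The level in ACHN was 7.45, 7.01 and 6.33 CPM in shCtrl and 16.3, 19.5 and 15.6 in shKDM5C. With the YY1 hairpin the values were 26.6, 24.8 and 26.6 CPM, and with both hairpins 12.5, 11.7 and 11.4. Every depleted library was above every shCtrl library, shYY1 most of all, and double lay between shCtrl and the single knockdowns. KRT7 rose in ACHN shKDM5C (1.29 ± 0.11, adjusted p = 1.76e-10), in shYY1 (log2 fold change 1.89 ± 0.088 SE, adjusted p = 7.07e-19) and in double (0.78 ± 0.12, adjusted p = 9.45e-06). In double it was lower than in shKDM5C (-0.50 ± 0.10, adjusted p = 0.000466) and shYY1 (-1.12 ± 0.083, adjusted p = 3.55e-09). HK2 libraries held 115, 121 and 118 CPM in shCtrl and 14.5, 29.5 and 27.8 in shKDM5C. It was 121, 117 and 107 CPM in the shYY1 libraries and 61.9, 52.3 and 55.5 in the double libraries. The shYY1 range overlapped that of shCtrl, shKDM5C was lowest, and double lay between them. KRT7 fell in HK2 shKDM5C (-2.28 ± 0.23, adjusted p = 0.00979, and -2.05 ± 0.066, adjusted p = 4.98e-17, without replicate 1) and in double (-1.06 ± 0.060, adjusted p = 1.59e-15). The shYY1 value was -0.038 ± 0.057 (adjusted p = 0.673). With all 3 shKDM5C libraries the call for KRT7 was lost without any one of the shCtrl libraries or shKDM5C replicate 3 (adjusted p 0.0549 to 0.102), the direction being the same. KRT7 in HK2 double was lower than in shYY1 (-1.02 ± 0.069, adjusted p = 1.63e-11) and higher than in shKDM5C (1.22 ± 0.24, adjusted p = 0.0205). The latter was 0.99 ± 0.085 (adjusted p = 1.74e-09) without shKDM5C replicate 1, and was lost without any one of the double libraries (adjusted p 0.0826 to 0.105). KRT7-AS, which overlaps it, had 3 to 42 counts in any library.

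KRT80, the third most abundant member per kb in both lines, rose with YY1 depletion in ACHN, fell with KDM5C depletion in HK2, and fell in both double knockdowns. Its level in ACHN was 419, 422 and 423 CPM in shCtrl and 426, 410.5 and 425 in shKDM5C. The shYY1 libraries held 542, 558 and 523 CPM and the double libraries 299, 279.9 and 302. The shKDM5C range covered that of shCtrl, shYY1 was above both and double below all. KRT80 rose in ACHN shYY1 (0.34 ± 0.028, adjusted p = 2.48e-12) and fell in double (-0.51 ± 0.044, adjusted p = 6.93e-09), with -0.018 ± 0.029 (adjusted p = 0.623) in shKDM5C. Double gave -0.49 ± 0.045 (adjusted p = 5.08e-08) against shKDM5C and -0.87 ± 0.045 (adjusted p = 3.64e-11) against shYY1. HK2 libraries held 218, 214 and 213 CPM in shCtrl and 95.4, 113 and 129 in shKDM5C. Levels in the shYY1 libraries were 238, 225 and 222 CPM, and in the double libraries 173, 169 and 168. KRT80 was lowest in HK2 shKDM5C (-0.90 ± 0.12, adjusted p = 0.0184, and -0.84 ± 0.052, adjusted p = 1.27e-11, without replicate 1). The double libraries lay between shKDM5C and shCtrl (-0.34 ± 0.044, adjusted p = 1.31e-07, against shCtrl). The shKDM5C call with all libraries was lost without any one library other than replicate 1 (adjusted p 0.0701 to 0.165). In HK2 shYY1, whose libraries lay just above those of shCtrl, the value was 0.082 ± 0.048 (adjusted p = 0.217). Double gave 0.56 ± 0.12 (adjusted p = 0.0285) against shKDM5C, 0.49 ± 0.056 (adjusted p = 1.5e-07) without shKDM5C replicate 1, and -0.42 ± 0.051 (adjusted p = 2.89e-07) against shYY1. The call against shKDM5C was lost without shKDM5C replicate 2 or any one of the double libraries (adjusted p 0.0845 to 0.141).

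KRT10, the suprabasal keratin, was present at 23.9 CPM in ACHN and 23.5 CPM in HK2 shCtrl and fell past 1.5 on the log2 scale in the ACHN double libraries. ACHN libraries held 21.4, 25.5 and 24.7 CPM in shCtrl and 21.9, 15.8 and 17.4 in shKDM5C. With the YY1 hairpin the values were 20.3, 21.0 and 19.9 CPM, and with both hairpins 7.72, 6.70 and 6.60. The shKDM5C range overlapped that of shCtrl, shYY1 lay just below it, and the double libraries stood well below all others. KRT10 fell in ACHN shKDM5C (-0.39 ± 0.094, adjusted p = 0.00096), shYY1 (-0.25 ± 0.072, adjusted p = 0.00474, with adjusted p = 0.0642 in a fit of all 4 groups) and double (log2 fold change -1.76 ± 0.11 SE, adjusted p = 5.54e-11). It was lower in double than in shKDM5C (-1.37 ± 0.13, adjusted p = 6.88e-08) and shYY1 (-1.54 ± 0.10, adjusted p = 7.27e-10). In HK2 it stood at 23.1, 19.4 and 27.9 CPM in shCtrl and 5.87, 22.9 and 19.5 in shKDM5C. It was 37.7, 26.9 and 37.0 CPM in the shYY1 libraries and 21.8, 20.7 and 23.5 in the double libraries. Every group overlapped shCtrl, with shKDM5C replicate 1 the lowest library and 2 of the 3 shYY1 libraries the highest. KRT10 rose in HK2 shYY1 (0.52 ± 0.12, adjusted p = 0.0022, with adjusted p = 0.443 in a fit of all 4 groups). It was lower in double than in shYY1 (-0.62 ± 0.11, adjusted p = 5.29e-05, with adjusted p = 0.198 in that fit). The value in HK2 shKDM5C was -0.53 ± 0.42 (adjusted p = 0.53), or -0.16 ± 0.12 (adjusted p = 0.41) without replicate 1. Double gave -0.10 ± 0.11 (adjusted p = 0.478) against shCtrl and 0.43 ± 0.40 (adjusted p = 0.514) against shKDM5C, or 0.056 ± 0.11 (adjusted p = 0.72) without shKDM5C replicate 1. KRT10-AS1 had 69 to 232 counts per library.

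KRT15, the basal-cell keratin, was scarce and was the member that rose in the ACHN double libraries together with KRT7. The ACHN libraries held 2.15, 1.73 and 1.52 CPM in shCtrl and 3.68, 3.49 and 2.88 in shKDM5C. The shYY1 libraries held 2.24, 1.99 and 2.52 CPM and the double libraries 3.55, 5.43 and 5.22, from 28 to 128 counts per library. shKDM5C and double were each above shCtrl without overlap, while shYY1 overlapped it. KRT15 rose in ACHN shKDM5C (0.88 ± 0.21, adjusted p = 0.00101) and double (1.40 ± 0.22, adjusted p = 1.94e-05), with 0.30 ± 0.23 (adjusted p = 0.308) in shYY1. Double was above shYY1 (1.08 ± 0.21, adjusted p = 0.000223) and shKDM5C (0.52 ± 0.19, adjusted p = 0.0273). The last call was lost without any one of shKDM5C replicates 2 and 3 and double replicates 2 and 3 (adjusted p 0.0530 to 0.125). HK2 libraries had 5 to 35 counts, between 0.326 and 1.98 CPM, and every depleted group overlapped shCtrl, while the double libraries were all above those of shKDM5C. There it did not pass against shCtrl, with -0.93 ± 0.50 (adjusted p = 0.408) in shKDM5C, -0.73 ± 0.54 (adjusted p = 0.382) there without replicate 1, 0.23 ± 0.45 (adjusted p = 0.755) in shYY1 and 0.70 ± 0.38 (adjusted p = 0.131) in double. Double gave 1.62 ± 0.48 (adjusted p = 0.0673) against HK2 shKDM5C (1.42 ± 0.49, adjusted p = 0.0233, without replicate 1) and 0.47 ± 0.42 (adjusted p = 0.389) against shYY1.

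The hair keratins KRT81 and KRT86 were near the limit of detection, between 0 and 59 counts per library. KRT81 stood at 0.944, 0.971 and 1.30 CPM in ACHN shCtrl and 0.433, 0.506 and 0.980 in shKDM5C. Levels in the shYY1 libraries were 1.55, 1.02 and 0.896 CPM, and in the double libraries 0.309, 0.0554 and 0.163, from 6, 1 and 4 counts in the last group. Every double library was below the others, and KRT81 fell there against shCtrl (-2.55 ± 0.49, adjusted p = 0.000176) and against shYY1 (-2.66 ± 0.50, adjusted p = 0.000177). shKDM5C gave -0.75 ± 0.37 (adjusted p = 0.0837), which passed without shKDM5C replicate 3 (-1.20, adjusted p = 0.0223). shYY1 gave 0.093 ± 0.31 (adjusted p = 0.831), and the comparison of double with shKDM5C did not pass the filter on low counts. In HK2 the KRT81 levels were 1.09, 1.93 and 1.80 CPM in shCtrl and 0, 0.573 and 0.273 in shKDM5C. With the YY1 hairpin the values were 1.84, 2.00 and 1.21 CPM, and with both hairpins 1.42, 0.704 and 0.454. With all libraries the HK2 values missed the threshold, with -2.41 ± 0.74 (adjusted p = 0.211) in shKDM5C, 0.062 ± 0.35 (adjusted p = 0.925) in shYY1, and -0.91 ± 0.43 (adjusted p = 0.0792) in double. They were 1.501 ± 0.85 (adjusted p = 0.281) for double against shKDM5C, 1.001 ± 0.64 (adjusted p = 0.224) without shKDM5C replicate 1, and -0.97 ± 0.43 (adjusted p = 0.0671) for double against shYY1. The fall in shKDM5C passed without its replicate 1, the library with 0 counts (-1.91 ± 0.53, adjusted p = 0.00933), and that in double passed without double replicate 1 against shCtrl (-1.47, adjusted p = 0.0218) and against shYY1 (-1.53, adjusted p = 0.0174).

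KRT86 stood at 1.26, 2.16 and 1.41 CPM in ACHN shCtrl and 1.68, 2.19 and 2.07 in shKDM5C. It was 2.67, 3.18 and 2.63 CPM in the shYY1 libraries and 0.566, 1.22 and 1.47 in the double libraries. The shYY1 libraries were highest, and the shCtrl libraries overlapped those of shKDM5C and of double. KRT86 rose in ACHN shYY1 (0.79 ± 0.24, adjusted p = 0.0055), with 0.29 ± 0.26 (adjusted p = 0.362) in shKDM5C and -0.54 ± 0.35 (adjusted p = 0.19) in double. It was lower in double than in shYY1 (-1.35 ± 0.30, adjusted p = 0.000748) and shKDM5C (-0.82 ± 0.33, adjusted p = 0.0375). The last call was lost without shKDM5C replicate 2 or 3 or double replicate 1 (adjusted p 0.0875 to 0.138), and with total counts in place of TMM (adjusted p = 0.0502). HK2 held 2.13, 1.66 and 2.42 CPM in shCtrl and 0.522, 0.885 and 1.53 in shKDM5C. The shYY1 libraries held 1.60, 2.12 and 1.73 CPM and the double libraries 2.01, 1.47 and 1.98. The shKDM5C libraries were below the range of shCtrl, and the other groups overlapped it. The tests gave -1.04 ± 0.41 (adjusted p = 0.293) in shKDM5C, or -0.79 ± 0.38 (adjusted p = 0.149) without replicate 1, and -0.19 ± 0.31 (adjusted p = 0.698) in shYY1 and -0.19 ± 0.31 (adjusted p = 0.651) in double. Double gave 0.85 ± 0.42 (adjusted p = 0.222) against HK2 shKDM5C, 0.60 ± 0.40 (adjusted p = 0.249) without shKDM5C replicate 1, and 0.0039 ± 0.32 (adjusted p = 0.993) against shYY1. With the counts of both genes added into 1 feature, since their reads may be exchanged, the sum fell in ACHN double (-1.06, adjusted p = 0.00219) and rose in ACHN shYY1 (0.55, adjusted p = 0.0148).

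**Figure D2:**
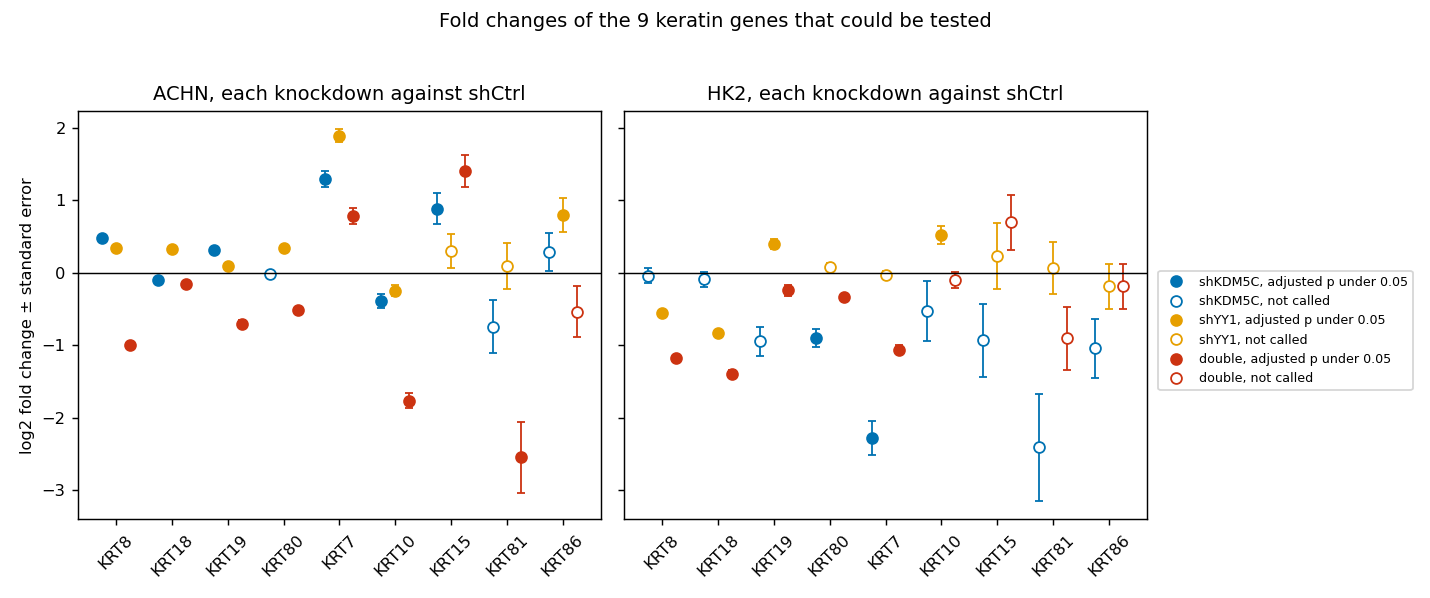
Log2 fold change ± standard error (y axis) of the 9 keratin genes that entered a test (x axis) for shKDM5C, shYY1 and double against shCtrl, in ACHN (left panel) and HK2 (right panel), 3 libraries a group. Filled points have an adjusted p under 0.05; in ACHN the double knockdown is below 0 for KRT8, KRT18, KRT19, KRT80, KRT10, KRT81 and KRT86 and above 0 for KRT7 and KRT15.

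Counted over the genes, more members rose than fell in the single knockdowns of ACHN, and more fell than rose in the double knockdown. Of the 10 members 9 were tested in each comparison with shCtrl, KRT17 having been removed as too low. In ACHN shKDM5C 4 rose (KRT7, KRT8, KRT15, KRT19) and 2 fell (KRT10, KRT18), where 28.9% of all genes tested rose and 27.7% fell. In ACHN shYY1 6 rose (KRT7, KRT8, KRT18, KRT19, KRT80, KRT86) and 1 fell (KRT10), against 24.2% and 24.5% of all genes. In ACHN double 2 rose (KRT7, KRT15) and 6 fell (KRT8, KRT10, KRT18, KRT19, KRT80, KRT81), against 30.7% and 32%. A change of at least 1.5 on the log2 scale as well was reached by KRT7 in shYY1 and by KRT10 and KRT81 in double, while 3.34%, 3.13% and 8.42% of all genes reached it in ACHN shKDM5C, shYY1 and double. The median log2 fold change of the 9 was 0.29 in ACHN shKDM5C, 0.32 in shYY1 and -0.54 in double, where the median over all genes was between -0.0074 and -0.0057 in each. These 3 comparisons share the shCtrl libraries.

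Relative to the single knockdowns, the ACHN double libraries were lower for most members. Against shKDM5C 8 members could be tested, of which 6 were lower and 1 (KRT15) higher, with 30.9% of all genes lower and 31.6% higher. Against shYY1 8 of 9 were lower and KRT15 was higher, with 32.7% of all genes lower and 32% higher. In HK2 shKDM5C 2 of 9 fell (KRT7 past 1.5 on the log2 scale, and KRT80), where 0.668% of all genes rose, 0.656% fell and 0.501% changed past that size. Without replicate 1 the number that fell was 4 (KRT7, KRT19, KRT80, KRT81), with 11.5% of all genes higher and 10.9% lower. HK2 shYY1 had 2 higher (KRT10, KRT19) and 2 lower (KRT8, KRT18), against 14.3% and 14.7% of all genes, of which 1.29% changed past 1.5. HK2 double had 5 lower (KRT7, KRT8, KRT18, KRT19, KRT80) and 4 that did not pass, where 25.5% of all genes were higher, 24.3% lower and 4.3% past 1.5. The median of the 9 was -0.93 in HK2 shKDM5C (-0.76 without replicate 1), 0.062 in shYY1 and -0.34 in double. HK2 double against shKDM5C had 2 higher (KRT7, KRT80) and 2 lower (KRT8, KRT18), with 6.26% and 5.59% of all genes. Without shKDM5C replicate 1 these were 4 higher (KRT15 and KRT19 as well) and 2 lower, with 22.2% and 21.0%. HK2 double against shYY1 had 6 lower (KRT7, KRT8, KRT10, KRT18, KRT19, KRT80), where 22.9% of all genes were lower and 24.8% higher.

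The double knockdown left most of the ACHN keratins below the sum of the single effects. The interaction is the log2 effect of the double knockdown minus the sum of both single effects, and was taken from one fit of the 4 groups. Depletion was not equal in the groups compared: YY1 was 76.8 CPM in ACHN shYY1 and 97.0 in ACHN double, and 63.9 and 74.2 in HK2. The part of this in the interaction was not tested, and the additional infection and selection of the double lines cannot be told apart from it. It was below 0 and called for 8 of 9 members in ACHN, where it was called below 0 for 28.8% of all genes tested and above 0 for 26.8%. It was -2.42 ± 0.14 (SE) for KRT7, -1.84 ± 0.052 for KRT8, -1.91 ± 0.66 for KRT81 and -1.64 ± 0.40 for KRT86. For the others it was -1.15 ± 0.15 for KRT10, -1.14 ± 0.062 for KRT19, -0.86 ± 0.054 for KRT80 and -0.40 ± 0.063 for KRT18. The largest adjusted p was 0.0162, for KRT81, whose call was lost without shKDM5C replicate 3, shYY1 replicate 1 or double replicate 2 (adjusted p 0.0521 to 0.0877). KRT15 had 0.20 ± 0.30 (adjusted p = 0.599). For KRT8 the single effects summed to 0.81 and the double effect was -1.005, and for KRT7 they summed to 3.17 with a double effect of 0.78. KRT19, KRT80, KRT18 and KRT86 likewise had sums above 0 and a double effect below 0. HK2 was mixed. The interaction was above 0 for KRT7 (1.25 ± 0.25, adjusted p = 0.00783) and KRT80 (0.48 ± 0.12, adjusted p = 0.0304). It was below 0 for KRT8 (-0.58 ± 0.12, adjusted p = 0.011) and KRT18 (-0.47 ± 0.12, adjusted p = 0.0321), with 5.21% of all genes above and 4.4% below. Without shKDM5C replicate 1 the same 4 were called, at 1.03 ± 0.10 (adjusted p = 3.18e-09), 0.42 ± 0.074 (adjusted p = 5.95e-05), -0.64 ± 0.061 (adjusted p = 2.49e-09) and -0.52 ± 0.070 (adjusted p = 1.12e-06), with 15% and 13.7% of all genes. With all 12 libraries the call for KRT18 was lost on removal of any of the other 11 (adjusted p 0.0561 to 0.0967) and that for KRT80 on removal of any shCtrl, shYY1 or double library (adjusted p 0.0577 to 0.0872). With total counts in place of TMM the calls for KRT8 (-0.50, adjusted p = 0.0659) and KRT18 (-0.39, adjusted p = 0.149) were lost, and with no filter those for KRT18 (adjusted p = 0.101) and KRT80 (adjusted p = 0.0652). The values for the other HK2 members were 0.31 ± 0.22 (adjusted p = 0.42) for KRT19, and -0.10 ± 0.46 (adjusted p = 0.919) for KRT10. They were 1.39 ± 0.73 (adjusted p = 0.265) for KRT15, 1.43 ± 0.88 (adjusted p = 0.346) for KRT81 and 1.04 ± 0.48 (adjusted p = 0.201) for KRT86. Without replicate 1 these 5 were 0.13, -0.45, 1.19, 0.95 and 0.80, again not called (adjusted p 0.0589 to 0.431).

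**Figure D3:**
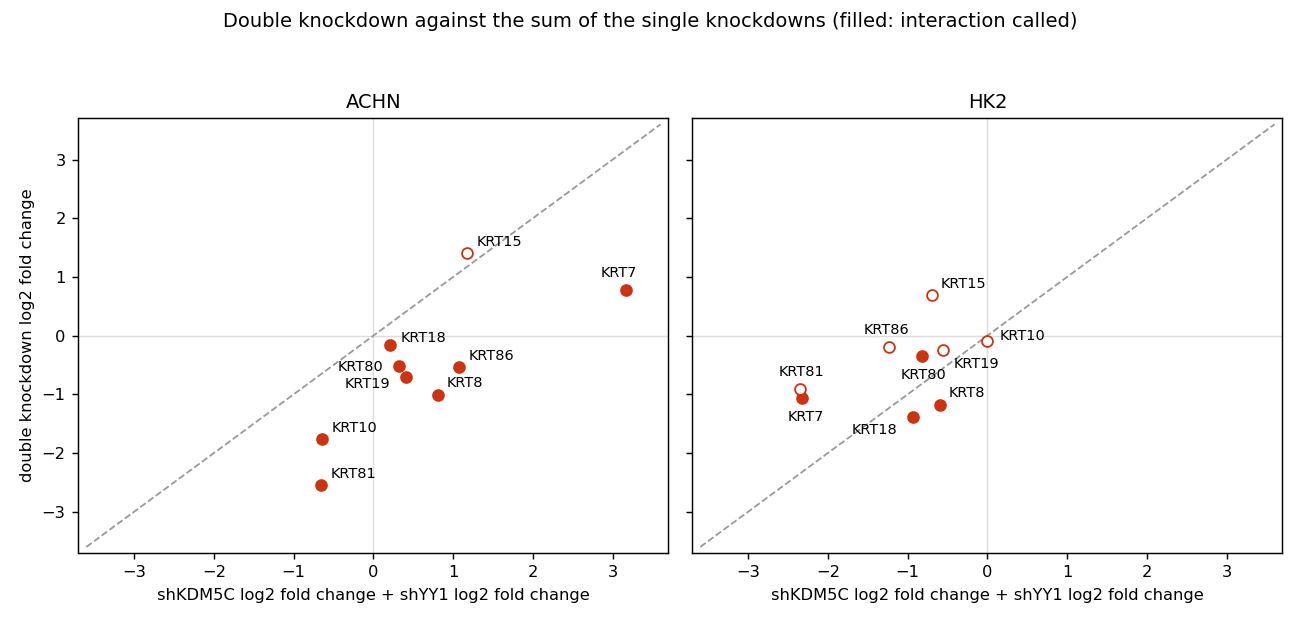
Log2 fold change of the double knockdown (y axis) against the sum of the shKDM5C and shYY1 log2 fold changes (x axis) for 9 keratin genes in ACHN (left) and HK2 (right); the dashed line marks equality, and filled points have an interaction with adjusted p under 0.05. In ACHN 8 genes lie below the line, with KRT7 farthest at 3.17 against 0.78, whereas in HK2 the filled points lie on both sides.

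Taken as a sum, keratin transcripts were lowest in the double libraries of both lines. The 10 genes together held 2772 ± 34.5 CPM (SD, n = 3) in ACHN shCtrl, 3517 ± 79.7 in shKDM5C, 3411 ± 26.8 with the YY1 hairpin and 1622 ± 101 with both. In HK2 the sums were 2821 ± 61.8, 2458 ± 350.4, 2015 ± 66.1 and 1325 ± 56.6 in the same order, with 2659 in shKDM5C without replicate 1. The double libraries (1507 to 1696 CPM in ACHN and 1261 to 1369 in HK2) did not overlap those of any other group of their line. KRT8, KRT18 and KRT19 made up 80.3% to 93.8% of the sum as group means, so it mostly follows these 3 genes. VIM, the vimentin gene, whose protein forms the other intermediate filament common in cultured kidney cells, was 680.0 ± 14.1 CPM in ACHN shCtrl and 941 ± 20.7 in double, and 430.3 ± 15.3 and 597 ± 29.8 in HK2. VIM rose in both double knockdowns (0.47 ± 0.040, adjusted p = 6.2e-09, in ACHN and 0.47 ± 0.043, adjusted p = 9.65e-11, in HK2). It also rose in ACHN shKDM5C (0.58 ± 0.027, adjusted p = 1.73e-15) and HK2 shYY1 (0.20 ± 0.055, adjusted p = 0.00824), and fell in ACHN shYY1 (-0.10 ± 0.026, adjusted p = 0.00144). In HK2 shKDM5C it had 0.10 ± 0.18 (adjusted p = 0.771), or -0.11 ± 0.043 (adjusted p = 0.0663) without replicate 1. Per kb, the ratio of VIM to the 10 keratins was 0.201 (0.197 to 0.208) in ACHN shCtrl, 0.247 (0.240 to 0.254) in shKDM5C, 0.160 (0.158 to 0.162) with the YY1 hairpin and 0.459 (0.436 to 0.505) with both. In HK2 it was 0.155 (0.148 to 0.163), 0.198 (0.149 to 0.278, with a mean of 0.158 without replicate 1), 0.245 (0.221 to 0.270) and 0.448 (0.413 to 0.472) in the same order, so the highest ratios of both lines were those of the double libraries. The size of these ratios also depends on the merged exon lengths.

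**Figure D4:**
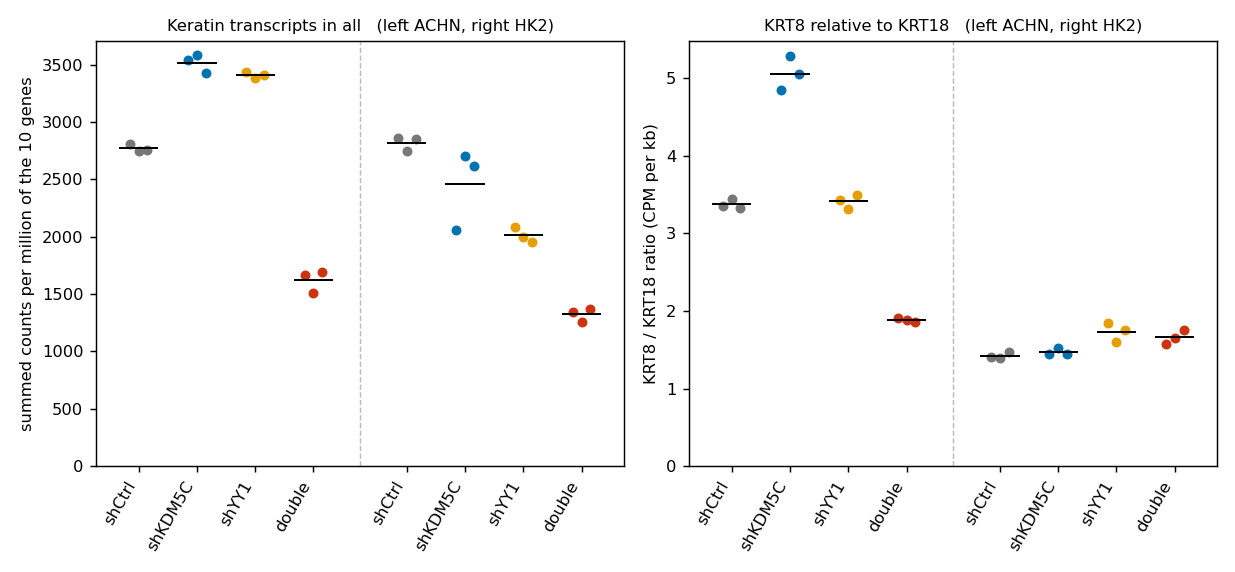
Summed CPM of the 10 keratin genes (left panel, y axis) and the ratio of KRT8 to KRT18 in CPM per kb (right panel, y axis) in each library (points) by group (x axis, ACHN left and HK2 right of the dashed line), with bars at the group means (n = 3). The double groups have the lowest sums, 1622 CPM in ACHN and 1325 CPM in HK2, and the ratio ranges from 1.89 in double to 5.06 in shKDM5C in ACHN and from 1.42 to 1.73 in HK2.

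Several effects differed between the lines when the difference itself was tested, as the ACHN effect minus the HK2 effect in one fit. For shKDM5C 5 of 9 members differed, each with the higher effect in ACHN (KRT7, KRT8, KRT15, KRT19, KRT80), against 5.74% of all genes higher and 6.18% lower. Without HK2 shKDM5C replicate 1 it was again 5, against 18.6% and 15.4%, at 3.34 for KRT7, 0.45 for KRT8, 1.61 for KRT15, 1.08 for KRT19 and 0.82 for KRT80. For shYY1 5 were higher in ACHN (KRT7, KRT8, KRT18, KRT80, KRT86) and 2 lower (KRT10, KRT19), against 16.6% and 16.5%. For double 3 were higher (KRT7, KRT8, KRT18) and 3 lower (KRT10, KRT19, KRT80), against 23.3% and 22.7%. The difference for KRT7 was 3.57 ± 0.28 (adjusted p = 1.39e-05) for shKDM5C, 1.94 ± 0.10 (adjusted p = 2.56e-15) for shYY1 and 1.86 ± 0.12 (adjusted p = 1.65e-13) for double. KRT18 differed by 1.17 ± 0.060 (adjusted p = 2.59e-15) for shYY1 and 1.25 ± 0.069 (adjusted p = 7.86e-15) for double, with -0.0068 ± 0.11 (adjusted p = 0.993) for shKDM5C, or -0.073 ± 0.051 (adjusted p = 0.297) without that library. KRT10 differed by -1.65 ± 0.17 (adjusted p = 2.14e-09) for double. Though KRT8 fell in both double knockdowns, the difference between the lines passed as well (0.19 ± 0.062, adjusted p = 0.0143), but not without any one of the 3 ACHN shCtrl libraries, ACHN double replicate 3 or HK2 double replicate 2 (adjusted p 0.0545 to 0.0909). YY1 and KDM5C were depleted to different degrees in the 2 lines, as given above, and the part of this in the differences was not tested.

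Other keratins were mostly silent, and the genes that anchor keratin filaments moved in both directions. Of 44 other keratin genes, the filter left at most 4 in any comparison with shCtrl. KRT4, a type II keratin of internal squamous epithelium, fell in ACHN from 4.79 ± 0.648 CPM in shCtrl to 0.458 ± 0.115 in shKDM5C (-3.38 ± 0.26, adjusted p = 3.92e-11). It fell to 0.452 ± 0.0524 in shYY1 (-3.40 ± 0.26, adjusted p = 5.16e-13) and 0.0554 ± 0.0959 in double (adjusted p = 9.89e-10). The type I hair keratins KRT32, KRT33B and KRT34 rose in ACHN shKDM5C, to 1.59 ± 0.251, 1.03 ± 0.351 and 1.19 ± 0.286 CPM from 0.197 ± 0.0845, 0.178 ± 0.0275 and 0.356 ± 0.0767. In HK2 double, KRT34 (1.60 ± 0.57, adjusted p = 0.0191) and KRT79 (2.76 ± 0.65, adjusted p = 0.000647) rose to 1.16 ± 0.591 and 1.38 ± 0.671 CPM. These 5 genes were chosen for mention after their values were seen.

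Among 13 other cytoplasmic intermediate filament genes, 9 were tested in each line, of which 4 rose and 5 fell in ACHN double and 1 rose and 6 fell in HK2 double. Of all genes tested 30.7% rose and 32% fell in ACHN double and 25.5% rose and 24.3% fell in HK2 double, and the counts for the lists that follow stand beside these shares. In ACHN double NES, which encodes nestin, fell (-2.17 ± 0.085, adjusted p = 1.06e-13), as did GFAP, the glial filament gene (-1.53 ± 0.11, adjusted p = 7.54e-10). NEFL, the neurofilament light chain gene, rose (3.31 ± 0.088, adjusted p = 4.42e-16), whereas in HK2 double it stood at 1.59 ± 0.321 CPM, below 4.93 ± 1.09 in HK2 shCtrl. NES fell in ACHN shKDM5C too (-1.84 ± 0.073, adjusted p = 7.3e-17), whereas NEFL fell in ACHN shYY1 (-1.04 ± 0.16, adjusted p = 1.7e-06). Of 20 genes for plakins and keratin filament organizers, 17 were tested in ACHN double, with 5 higher and 7 lower, near the shares over all genes, and 15 in HK2 double, with 3 higher and 9 lower. The filaggrin-type genes FLG (1.61 ± 0.068, adjusted p = 3.71e-13), FLG2 (2.62 ± 0.15, adjusted p = 2.94e-11) and HRNR (2.91 ± 0.12, adjusted p = 3.61e-13), whose proteins bundle keratin in the epidermis, rose in ACHN double and fell in ACHN shYY1, FLG by 1.83 on the log2 scale. All of them were below 1 CPM in every HK2 group. EPPK1, the gene of epiplakin, a keratin-binding plakin, fell in HK2 double (-2.66 ± 0.20, adjusted p = 1e-12) and in ACHN double (-2.85 ± 0.47, adjusted p = 3.07e-05). Desmosome genes, which tie keratin filaments to cell junctions, had 9 tested in each line, with 3 higher and 3 lower in ACHN double, again near the shares over all genes, and 2 higher and 6 lower in HK2 double. The desmosomal cadherin gene DSC3 rose in ACHN double (1.57 ± 0.073, adjusted p = 1.22e-12) and fell in HK2 double (-0.73 ± 0.087, adjusted p = 2.69e-08). Hemidesmosome genes, which tie keratin to the basement membrane, had 9 tested in each, with 4 higher and 2 lower in ACHN double and 5 higher and 2 lower in HK2 double. LAMB3, a chain of laminin 332, rose in HK2 double (1.93 ± 0.051, adjusted p = 1.45e-23). Transcription factors known for epithelial keratin genes had 4 higher and 5 lower of 11 in ACHN double and 3 higher and 5 lower of 9 in HK2 double. KLF4, one of these factors, rose in HK2 double (1.76 ± 0.13, adjusted p = 9.73e-13). Cornified envelope genes had 2 tested and both lower in ACHN double, and 3 tested with 1 higher and 1 lower in HK2 double. The median log2 fold changes in ACHN double and HK2 double were -0.25 and -0.52 for the other filament genes, -0.16 and -0.51 for plakins and organizers and -0.011 and -0.51 for desmosomes. They were 0.23 and 0.30 for hemidesmosomes, 0.13 and -0.38 for the transcription factors and -1.82 and -0.80 for the cornified envelope, beside -0.0057 and -0.0026 over all genes tested.

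Markers of the cell itself moved in every ACHN knockdown. Of 7 kidney epithelial markers tested, 6 fell and 0 rose in shKDM5C, 6 fell and 1 rose in shYY1 and 6 fell and 1 rose in double, where 27.7%, 24.5% and 32% of all genes fell. Those that fell in double included CDH1, the E-cadherin gene (-3.16 ± 0.11, adjusted p = 2.32e-14), PAX2 (-2.40 ± 0.12, adjusted p = 2.2e-12), LHX1 (-2.45 ± 0.11, adjusted p = 1.14e-12) and CDH16 (-1.70 ± 0.10, adjusted p = 2.52e-11). PAX8, the most abundant of the list in ACHN, was the 1 that rose in double, from 544 CPM in shCtrl to 717. The summed level of the list was therefore not lower in double (862 to 916 CPM) than in shCtrl (856 to 864). PAX2 was higher in shYY1, at 83.7 CPM against 28.1 in shCtrl. CDH1 was as low in the shKDM5C libraries, at 5.65 CPM against 5.28 in double, 42.3 in shYY1 and 48.0 in shCtrl. SFN, a stratified epithelium marker, fell (-2.65 ± 0.20, adjusted p = 1.53e-09). So did the fibroblast markers COL1A1 (-2.11 ± 0.053, adjusted p = 1.96e-16) and PDGFRB (-2.04 ± 0.087, adjusted p = 3.89e-13), the only 2 of that 7-gene list that were tested. Of 4 clear cell carcinoma markers tested in ACHN double 3 fell, with a median of -0.81, and 1 rose, ANGPTL4 (5.68 ± 0.067, adjusted p = 1.13e-20). In HK2 double 5 of this list were tested, of which 3 rose and 1 fell, with a median of 1.47. Of 8 kidney epithelial markers in HK2 double 5 fell and 2 rose, where 24.3% of all genes fell and 25.5% rose. Of 4 fibroblast markers tested there 2 rose, among them LUM (2.55 ± 0.094, adjusted p = 4.21e-20), and 0 fell. The part of these shifts in the keratin results was not tested.

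The members did not move as one set across the 8 groups. Over the 8 group means of log2 CPM, each centred on the mean of its line, Pearson's r was 0.97 between KRT80 and KRT81, 0.92 between KRT19 and KRT80, and 0.88 between KRT10 and KRT19. It was 0.72 between KRT8 and KRT18, 0.35 between KRT8 and KRT19 and -0.15 between KRT18 and KRT19. KRT15 ran against both KRT8 and KRT18, at -0.67 each. The points are 8 means from 2 lines that share libraries and depth, so these values are a description. Without HK2 shKDM5C replicate 1, a choice made after seeing the data, they were 0.94, 0.90 and 0.79 for the first 3 pairs, 0.74, 0.40 and -0.12 for the next 3, and -0.71 and -0.68 for KRT15. Among 11434 genes with at least 10 CPM in a group, the 3 with the pattern most like that of KRT8 were COPS5 (r = 0.988), LEO1 (r = 0.986) and SCTR-AS1 (r = 0.985). For KRT18 they were RBM45 (r = 0.991), TERF2 (r = 0.980) and LLGL2 (r = 0.974). For KRT19 they were MRPL28 (r = 0.998), SH3BP5L (r = 0.994) and CCDC124 (r = 0.993). For KRT7 they were ZNF343 (r = 0.984), BRF2 (r = 0.965) and THAP4 (r = 0.961). For KRT80 they were MXD3 (r = 0.981), ADD1 (r = 0.977) and GSDMD (r = 0.977). The genes most like KRT10 were CHCHD7 (r = 0.995), COX7C (r = 0.994) and SEC61B (r = 0.991). Those most like KRT15 were TRPT1 (r = 0.991), TBCC (r = 0.986) and FAAP20 (r = 0.983). KRT81 was followed most closely by ROGDI (r = 0.984), CHTF18 (r = 0.983) and PDLIM7 (r = 0.981). No keratin was among the 24 genes so found. These genes depend on HK2 shKDM5C replicate 1: without it 9 of the 24 were again among the 3 most similar, 0 of 3 for KRT19 and for KRT81, and r of the 24 went as low as 0.546.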

How the data were processed

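RNA was extracted with TRIzol from 24 samples and sequenced as NEBNext Ultra libraries. Per the labels, the authors aligned the reads to hg38 with HISAT2 2.0.5 and counted them per Ensembl gene with featureCounts (1.5.0-p3 in the submitters' processing notes, 2.0.1 in the file headers), without a strand option. The deposited values are raw counts per gene for 60675 genes in each library.

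Counts were tested with edgeR 4.0.16 (R 4.3.3): TMM scaling, filterByExpr and the quasi-likelihood F test, fitted on all genes in the libraries of the groups compared, with p-values adjusted by Benjamini and Hochberg over all genes tested. The threshold for a call was an adjusted p of 0.05. The interaction used one fit of the 12 libraries of a line, and differences between lines one fit of the 12 shCtrl and knockdown libraries concerned. The standard error is the absolute log2 fold change divided by the square root of F. Levels are CPM with TMM over all libraries, and CPM per kb of merged exons where genes are compared. The scripts were tested on simulated data. The alternatives were another scaling, other filters, DESeq2 1.42.0, an unadjusted threshold, a fit of all 4 groups, a replicate block, summed paralogs or pseudogenes, and each library left out.

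The 10 genes and all gene lists were chosen with earlier results of these data known. Named beside them by rule were KDM5C, YY1 and VIM, the list genes called in a double knockdown at 1.5 or more on the log2 scale with at least 10 CPM in the higher group, and the 3 genes of most similar pattern. Symbols came from the reference gene table (56558 genes matched, 4117 without a symbol), and promoters from RefSeq. Precision is limited by 3 libraries a group and, for scarce genes, by counts near 0.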

Additional observations from a re-analysis of the deposited data

Results flagged for a closer look

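The following 18 values were singled out because the effect of a knockdown differed between ACHN and HK2 in a test of the difference itself (edgeR, one fit of the 12 libraries of the groups concerned, adjusted p under 0.05). They are log2 effects in ACHN minus those in HK2. For shKDM5C they were 3.57 for KRT7, 0.53 for KRT8, 1.81 for KRT15, 1.27 for KRT19 and 0.89 for KRT80. KRT7, KRT8, KRT15 and KRT19 had opposite signs in the 2 lines, of which KRT7 was called in both, and KRT8 was at -0.043 in HK2. Without HK2 shKDM5C replicate 1 the 5 differences were 3.34, 0.45, 1.61, 1.08 and 0.82, and KRT8 was at 0.030 in HK2. KRT19 was then also called in both lines, at 0.32 in ACHN and -0.76 in HK2. For shYY1 the values were 1.94 for KRT7, 0.90 for KRT8, -0.76 for KRT10, 1.17 for KRT18, -0.29 for KRT19, 0.27 for KRT80 and 1.00 for KRT86. Here KRT8 and KRT18 rose in ACHN and fell in HK2, and KRT10 did the reverse. For the double knockdown they were 1.86 for KRT7, 0.19 for KRT8, -1.65 for KRT10, 1.25 for KRT18, -0.45 for KRT19 and -0.16 for KRT80, of which KRT7 rose in ACHN and fell in HK2 and the other 5 had values below 0 in both lines.

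The differences for KRT15 under shKDM5C (adjusted p 0.0519 to 0.0870) and KRT86 under shYY1 (adjusted p 0.0541 to 0.117) were lost without any one of 9 of the 12 libraries, and those for KRT8 and KRT80 under double without any one of 5 and 4. For KRT15 these were the 3 ACHN shCtrl, the 3 ACHN shKDM5C, HK2 shCtrl replicates 2 and 3 and HK2 shKDM5C replicate 2. For KRT86 they were replicates 1 and 3 of ACHN shCtrl, HK2 shCtrl and HK2 shYY1 and all 3 of ACHN shYY1, and for KRT80 ACHN double replicate 2, HK2 shCtrl replicates 2 and 3 and HK2 double replicate 1 (adjusted p 0.0509 to 0.0692). The differences for KRT8 (adjusted p = 0.0601) and KRT15 (adjusted p = 0.0807) under shKDM5C were lost with the replicate block, and that for KRT80 under double with total counts (adjusted p = 0.0819). That for KRT86 under shYY1 was lost with DESeq2 (adjusted p = 0.0511) and with no filter (adjusted p = 0.0747). With the counts of KRT81 and KRT86 added into 1 feature, the shYY1 difference did not pass either (0.64, adjusted p = 0.0875). Values of single genes were not screened for an outlying sample within groups of 3, and each library was left out in turn instead.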

How the results depend on the processing

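Most calls for the keratin genes held when the processing was changed. Of 1152 member values under the other settings, 1100 stayed on their side of the threshold, 26 lost and 26 gained a call, and of 1128 with one library left out 1037 stayed, 80 lost and 11 gained a call; no called value turned its direction, and 52 values called under neither setting changed sign. No scaling moved the median of all genes by more than 0.1 on the log2 scale. The counts that moved by over 1.5 times involve HK2, and mostly its shKDM5C group. In HK2 shKDM5C the number of members called was 2 as reported, 5 at an unadjusted p, 4 with DESeq2, 4 in a fit of all 4 groups, 0 with the replicate block and 0 to 4 with one library left out. Where edgeR called 0 members, 4 to 6 had an unadjusted p under 0.05: 5 with the block, 4, 5 and 4 without HK2 shCtrl replicates 1, 2 and 3, and 6 without shKDM5C replicate 3. HK2 shYY1 went from 4 members to 2 in the fit of all 4 groups. HK2 double against shKDM5C went from 4 to between 2 and 6 with one library left out. The HK2 interaction went from 4 to 2 with total counts, 2 with no filter, 2 with the replicate block and between 2 and 4 with one library left out. The difference of the shKDM5C effect between lines went from 5 to 3 with the block.

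Over all genes, HK2 shKDM5C had 214 calls as reported, 405 with no filter, 807 with DESeq2, 1340 in the fit of all 4 groups and 0 with the replicate block (1770 at an unadjusted p under 0.05), and 0 to 3718 with one library left out, the most without shKDM5C replicate 1. HK2 shYY1 went from 4671 to 927, double from 8073 to 3914 and double against shYY1 from 7609 to 3765 in the fit of all 4 groups. HK2 double against shKDM5C went from 1901 to 3124 with DESeq2, 797 with the block, 4647 in the fit of all 4 groups and 383 to 7197 with one library left out. The HK2 interaction went from 1642 to between 957 and 5065, and the difference of the shKDM5C effect between lines from 2140 to 957 with the block and to between 1267 and 6289 with one library left out.

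At most 1 of 3 same-numbered pairs had deviations correlated above 0.1 in any comparison within a line. This cannot decide whether the samples were paired, since deviations from a mean of 3 libraries depend on each other. The main fits used no block, and values with the block are given in this section and the one before. The cause of these changes was not tested. KRT15, KRT81 and KRT86 rest on at most 128 counts in a library, and KRT17 could not be tested.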
